A study of Homo sapiens with 4 samples.

Results

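The genes described here encode the MYC, MAX and MXD network, a set of transcription factors that compete for the same DNA site. They are the 10 genes with the symbols MYC, MYCN, MYCL, MAX, MXD1, MXI1, MXD3, MXD4, MNT and MLX among 60617 genes in the deposited table, and all 10 passed the filter on low counts. Messenger RNA was measured in the human Ewing sarcoma line A673 after 24 h in DMSO, the solvent, or in CBL0137 at 1 µM, with 2 libraries in each condition. CBL0137 belongs to the curaxins, small molecules that bind DNA and hold the histone chaperone FACT on chromatin. Both conditions come from the same line, which carries the EWSR1-FLI1 fusion and lacks functional p53, so the values describe a single tumour line.

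As background, MYC and its paralogs MYCN and MYCL bind DNA only as dimers with MAX, at a short site called the E-box, and there they raise transcription of genes for growth, ribosome production and metabolism. The MXD proteins (MXD1, MXI1, MXD3 and MXD4) and MNT also pair with MAX at the same sites, but bring SIN3 and histone deacetylases and lower transcription. MLX stands beside MAX as a second shared partner, which pairs with MXD1, MXD4 and MNT and with the glucose-sensing factors MLXIP (MondoA) and MLXIPL (ChREBP). In Ewing sarcoma MYC is abundant and is linked to the growth of the tumour cells.

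MXD3 was the only one of the 10 genes that changed past both limits of the test, and it fell to 0.468 of its DMSO level. MYC was lower by 12.4% and MNT and MXD4 were higher by 15.3% and 12%, all inside the fold limit, while MAX and MLX, the shared partners, had adjusted p-values above 0.05. The MYC paralogs and the antagonists each held genes with positive and with negative log2 fold changes. A gene was called when its Benjamini-Hochberg adjusted p from edgeR's quasi-likelihood test, over 17309 genes tested, was under 0.05 and its fold change exceeded 1.5. Of the 10 genes, 1 was called (lower), against 9.61% of all genes tested that were called in either direction and 2.73% that were called lower. Among the members 0 were called higher, against 6.88% of all genes tested. At the adjusted p alone, 3 members were higher and 2 lower, against 17.5% and 19.0% of all genes tested. The members' median log2 fold change was -0.04, and that of all genes tested was 0.003.

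Gene counts per library ran from 20483714 to 23373554. The 8 markers of Ewing sarcoma cells examined, among them CD99, NR0B1 and NKX2-2, lay between 47.4 and 1592 CPM (read counts per library size, scaled by TMM) in every library. The 8 markers of blood, epithelial and endothelial cells found in the table summed to 1.73 and 2.45 CPM in DMSO and to 2.71 and 2.72 CPM in CBL0137, with CD3E at 0 in all libraries; CDH5, an endothelial cadherin, was called higher from 4 and 3 counts to 19 and 17. The part of these markers in the results was not tested. Nothing in the labels ties the replicates to separate cultures, and the p-values therefore cover a spread that could be technical. In bulk RNA, fewer cells of a kind and less RNA per cell cannot be told apart.

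**Figure D1:**
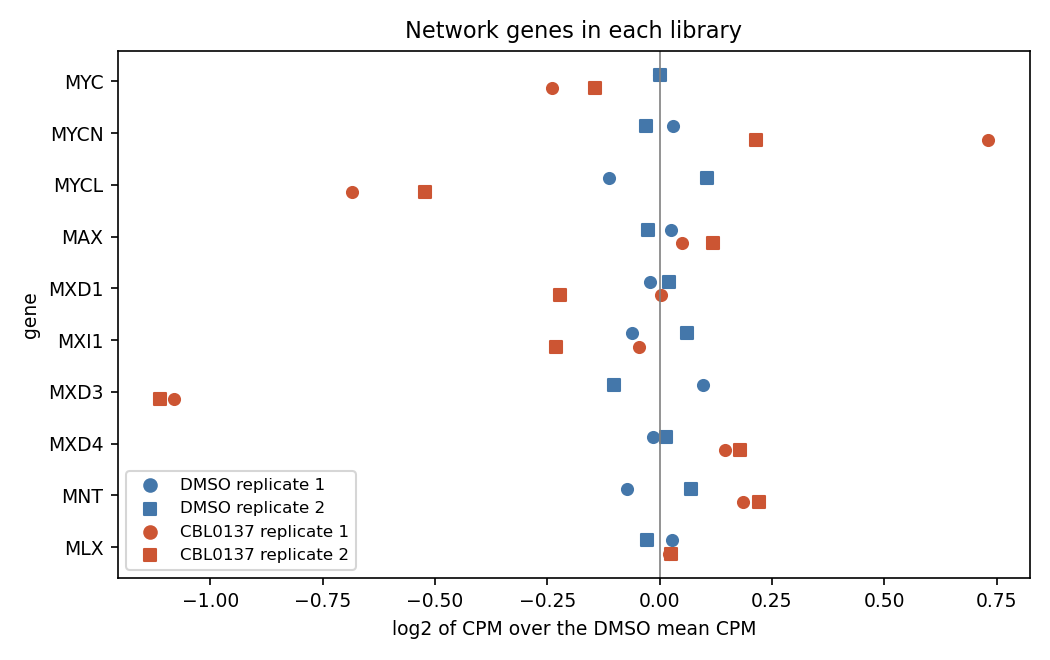
Level of each network gene in each library, as log2 of its CPM over the mean CPM of the DMSO libraries, with circles for replicate 1 and squares for replicate 2. Both CBL0137 libraries of MXD3 lie beyond -1, and the spread between the CBL0137 libraries is widest for MYCN.

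MYC (ENSG00000136997, chromosome 8) was the most abundant member on every scale. It measured 255.0 and 255.6 CPM in DMSO replicates 1 and 2 and 216 and 231 CPM in CBL0137 replicates 1 and 2. The conditions did not overlap, and the gap between the CBL0137 libraries was wider than that between the DMSO libraries. The log2 fold change was -0.19 ± 0.04 (SE; 95% interval -0.27 to -0.11), with an edgeR adjusted p of 0.00039, so the decrease was distinguishable from the replicate spread but smaller than the fold limit. On the deposited FPKM the libraries overlapped, with 70.0 and 68.5 in DMSO and 61.6 and 68.7 in CBL0137, and the adjusted p was 0.41 with limma.

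MYCN, the paralog best known from neuroblastoma, was expressed at a low level in A673 (ENSG00000134323, chromosome 2, 16080672 to 16087129 in GRCh37). Its counts were 111 and 105 in DMSO and 166 and 128 in CBL0137, which correspond to 4.86, 4.66, 7.90 and 5.53 CPM. Both CBL0137 libraries were above both DMSO libraries, and replicate 1 was well above replicate 2. The log2 fold change was 0.49 ± 0.18 with an edgeR adjusted p of 0.032, and the 95% interval of 0.12 to 0.85 spanned the fold limit. Without CBL0137 replicate 2 the gene was called higher, at a log2 fold change of 0.73 with an adjusted p of 0.00094, whereas the adjusted p was above 0.05 in 5 of 13 alternatives, namely without DMSO replicate 2, without CBL0137 replicate 1, with DESeq2, with limma-voom and on log2(FPKM + 1).

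MYCL, the paralog first found in lung cancer, was the least abundant member (ENSG00000116990, chromosome 1, 40361100 to 40367928). Its counts were 55 and 63 in DMSO and 34 and 42 in CBL0137, or 2.41, 2.80, 1.62 and 1.81 CPM. Both treated libraries were below both controls, and the log2 fold change of -0.60 ± 0.26 was larger than the fold limit. The edgeR adjusted p was 0.08, so the gene was not called, and the interval of -1.14 to -0.05 shows how little these counts fix its size. The paralogs MYCN and MYCL thus had estimates of opposite sign, each resting on fewer than 200 counts per library.

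MAX, the partner that MYC and the MXD proteins need, measured 37.7 and 36.4 CPM in DMSO and 38.3 and 40.2 CPM in CBL0137 (ENSG00000125952, chromosome 14, 65472892 to 65569413). The treated libraries were slightly above the controls without overlap. The log2 fold change was 0.09 ± 0.07 with an interval of -0.05 to 0.22 and an edgeR adjusted p of 0.34. MYC exceeded MAX per length by 6.93 and 7.20 times in the DMSO libraries and by 5.78 and 5.88 times in the CBL0137 libraries, and on the deposited FPKM by 3.94, 4.07, 3.17 and 3.30 times in the same order.

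MXD3, an antagonist known for its expression in dividing cells, showed the largest change of the network (ENSG00000213347, chromosome 5, 176728462 to 176739758, minus strand). Its counts were 440 and 378 in DMSO and 179 and 193 in CBL0137, or 19.3, 16.8, 8.52 and 8.33 CPM. The treated libraries lay close together and far below both controls. MXD3 fell by 1.10 ± 0.11 on the log2 scale, a level 2.14-fold lower, with an edgeR adjusted p of 2.3e-08. It was called under all 13 alternatives in which it was tested, at log2 fold changes of -1.20 to -0.79, the last on log2(FPKM + 1). Its deposited FPKM was 8.30 and 8.13 in DMSO and 3.85 and 4.85 in CBL0137.

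Part of the MXD3 exon sequence is shared with neighbours. In GENCODE, 19.5% of its exon bases overlap exons of RAB24 on the same strand and 24.2% overlap exons of PRELID1 on the other strand. The sources used here do not give whether the libraries kept strand, and reads from those bases may not be assigned to one gene. RAB24 counts were 43 in each DMSO library and 39 and 30 in CBL0137, with -0.27 ± 0.30 as log2 fold change (edgeR adjusted p = 0.51). PRELID1 measured -0.30 ± 0.09 on the log2 scale (edgeR adjusted p = 0.008), a smaller decrease than that of MXD3. Other members share exon bases too, among them MLX (18.2% with PSMC3IP), MAX (13.1% with FNTB) and MNT (12.2% with a noncoding gene), all on the other strand. The per-length levels given here from counts use the full exon lengths.

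The other MXD genes stayed inside the fold limit. MXD4, typical of resting and differentiated cells, measured 38.2 and 38.9 CPM in DMSO and 42.6 and 43.6 CPM in CBL0137 (chromosome 4, 2249159 to 2263836). Its conditions did not overlap, and the log2 fold change was 0.16 ± 0.06 with an edgeR adjusted p of 0.049, which stayed under 0.05 in 3 of 13 alternatives. MXI1, also called MXD2, measured 44.5 and 48.5 CPM in DMSO and 45.0 and 39.6 CPM in CBL0137 (chromosome 10, 111967363 to 112047123). Its conditions overlapped, and the log2 fold change was -0.14 ± 0.07 (interval -0.28 to 0.005, edgeR adjusted p = 0.12). MXD1, the first antagonist of the family to be described, measured 12.6 and 13.0 CPM in DMSO and 12.8 and 11.0 CPM in CBL0137 (chromosome 2, 70124820 to 70170077). The conditions overlapped here too, with a log2 fold change of -0.11 ± 0.11 (interval -0.34 to 0.13, edgeR adjusted p = 0.5).

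MNT, the widely expressed antagonist that is present in proliferating and resting cells alike, measured 32.3 and 35.7 CPM in DMSO and 38.7 and 39.6 CPM in CBL0137 (ENSG00000070444, chromosome 17, 2287367 to 2304398). Both treated libraries were above both controls. The log2 fold change was 0.21 ± 0.07 (interval 0.06 to 0.35) with an edgeR adjusted p of 0.023, which stayed under 0.05 in 9 of 13 alternatives, DESeq2 not among them. Across the whole network, 7 of 10 genes had conditions that did not overlap in CPM, against 66.9% of all genes tested, so this count is near the background.

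**Figure D2:**
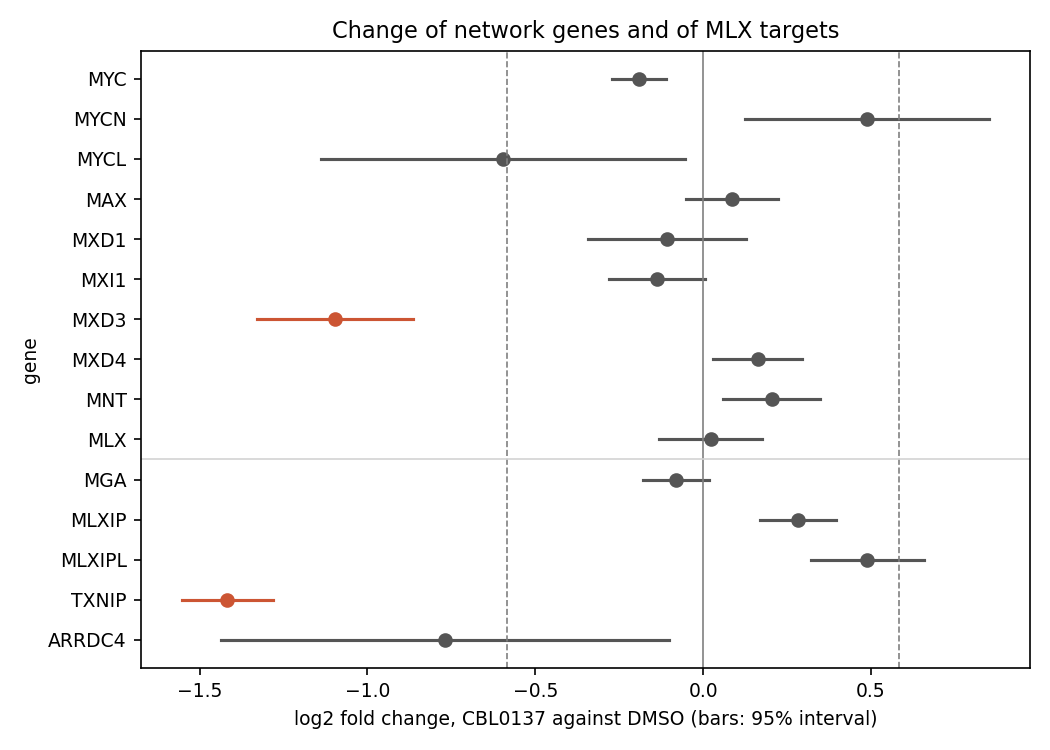
Log2 fold change of CBL0137 against DMSO for the 10 network genes (above the line) and, below it, MGA, MLXIP, MLXIPL and the MLX-dependent genes TXNIP and ARRDC4, with 95% intervals from edgeR and dashed lines at the fold limit of 1.5. MXD3 (-1.10) and TXNIP (-1.42), in orange, were called.

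MLX measured 29.3 and 28.2 CPM in DMSO and 29.2 and 29.3 CPM in CBL0137 (chromosome 17, 40719090 to 40725257). The conditions overlapped, and the interval of its log2 fold change, -0.13 to 0.18, excluded a change of the size seen in MXD3. Its partners were measured in the same way. MLXIPL, known from glucose-driven fat synthesis, measured 21.9 and 20.3 CPM in DMSO and 30.6 and 28.7 CPM in CBL0137; its log2 fold change of 0.49 ± 0.08 had an edgeR adjusted p of 3.5e-05 and was under the fold limit. MLXIP, which senses glycolytic intermediates, measured 63.2, 58.8, 74.0 and 74.4 CPM in the same order (0.28 ± 0.05, edgeR adjusted p = 2e-04). MGA, a large repressor that also pairs with MAX, measured 101, 99.3, 93.1 and 96.6 CPM (-0.08 ± 0.05, edgeR adjusted p = 0.2).

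TXNIP, an inhibitor of glucose uptake and a classic target of MLXIP and MLX, was lower in the libraries where both Mondo factors were higher. It measured 103 and 117 CPM in DMSO and 38.1 and 44.3 CPM in CBL0137, and fell by 1.42 ± 0.07 on the log2 scale (edgeR adjusted p = 2e-14). ARRDC4, a related arrestin and another such target, had only 37 and 47 counts in DMSO and 20 and 28 in CBL0137. Its log2 fold change was -0.77 ± 0.32 and it was not called (edgeR adjusted p = 0.067).

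Levels between genes can be compared only per length. With counts divided by the kilobases of GENCODE exon per gene (RPKM here), the order in DMSO from high to low was MYC (41.8), MXI1 (7.87), MLX (6.76), MAX (5.92), MXD4 (5.61), MNT (3.91), MXD3 (3.80), MXD1 (2.01), MYCN (1.73) and MYCL (0.524). MNT and MXD3 overlapped between libraries, and the other neighbours did not. In CBL0137, MXD3 (1.78 RPKM) stood after MYCN (2.44) and MXD1 (1.87), and MYCN overlapped with MXD1 and MXD1 with MXD3. The deposited FPKM placed MAX directly after MYC, at 17.3 against 69.2 in DMSO, and MXD3 at 8.21, above MNT (6.97) and MXD4 (6.86). The ranks of MYC, at the top, and MYCL, at the bottom, were the same on both scales and in both conditions, whereas those of MAX, MXI1, MXD3 and MXD4 in DMSO differed between the scales. The cause of that difference was not tested.

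**Figure D3:**
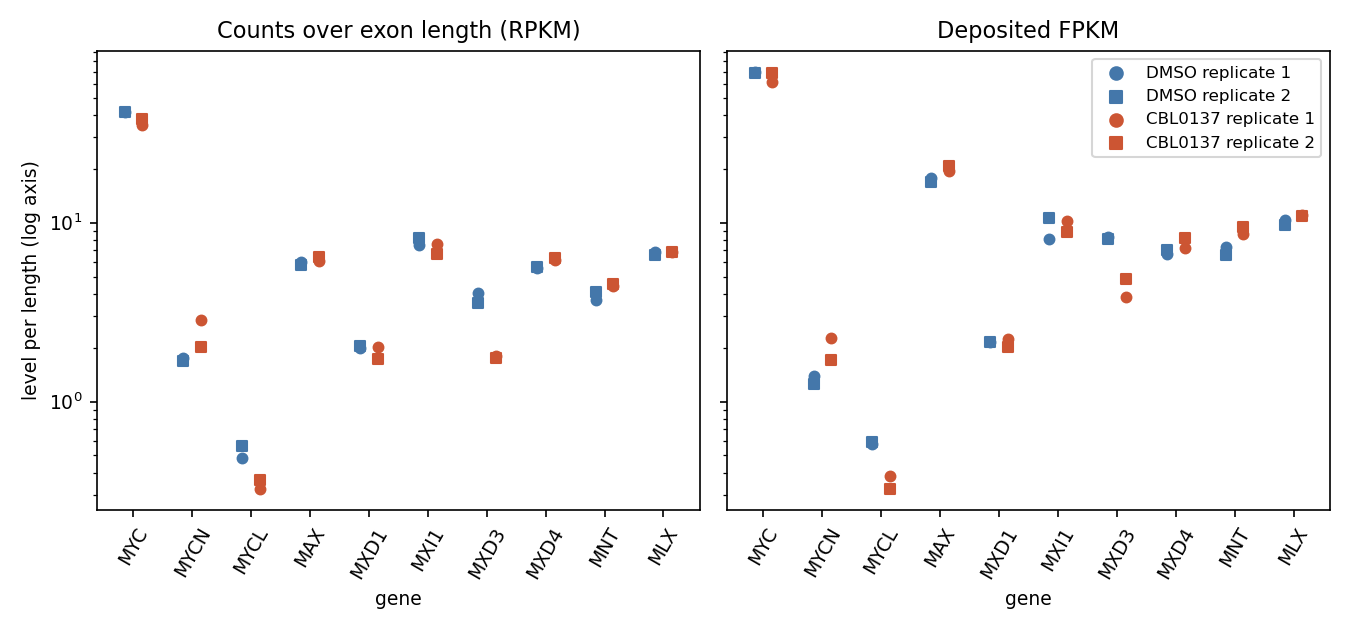
Level of each network gene per length in each library, from counts over GENCODE exon length (left) and from the deposited FPKM (right), on a log axis. MYC stands above all others in both panels, and MXD3 is lower in both CBL0137 libraries on either scale.

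The summed levels of the paralogs and of the antagonists were then set against each other. MYC, MYCN and MYCL together reached 43.99 and 44.1 RPKM in DMSO and 38.6 and 40.2 RPKM in CBL0137, and MYC alone made up 94.9% of that sum in each DMSO library and 91.7% and 94.1% in CBL0137. MXD1, MXI1, MXD3, MXD4 and MNT together reached 22.8 and 23.5 RPKM in DMSO and 22.1 and 21.1 RPKM in CBL0137. Both sums were lower in both treated libraries on this scale. On the deposited FPKM both sums overlapped between conditions, and with library size alone the antagonist sums did. Their ratio was 1.93 and 1.87 in DMSO and 1.75 and 1.90 in CBL0137, so the conditions overlapped.

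The mean log2 ratio differed by -0.06 between conditions, against a pooled replicate SD of 0.06, and turned to 0.01 with MNT left out of the antagonists and to 0.004 without CBL0137 replicate 1. No p-value is given for this sum. What differed was the make-up of the antagonist pool: MXD3 contributed 17.8% and 15.0% of it in DMSO and 8.14% and 8.33% in CBL0137, MXD4 24.3% and 24.0% against 28.1% and 30.1%, and MNT 16.2% and 17.4% against 20.1% and 21.6%. On the deposited FPKM the share of MXD3 was 25.5% and 23.4% in DMSO and 12% and 14.5% in CBL0137. The level of MXD4 was 1.37 and 1.60 times that of MXD3 per exon length in DMSO and 3.45 and 3.61 times in CBL0137. On the deposited FPKM it was 0.801 and 0.871 times that of MXD3 in DMSO, so MXD3 was then the higher of the pair, and 1.87 and 1.70 times in CBL0137.

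**Figure D4:**
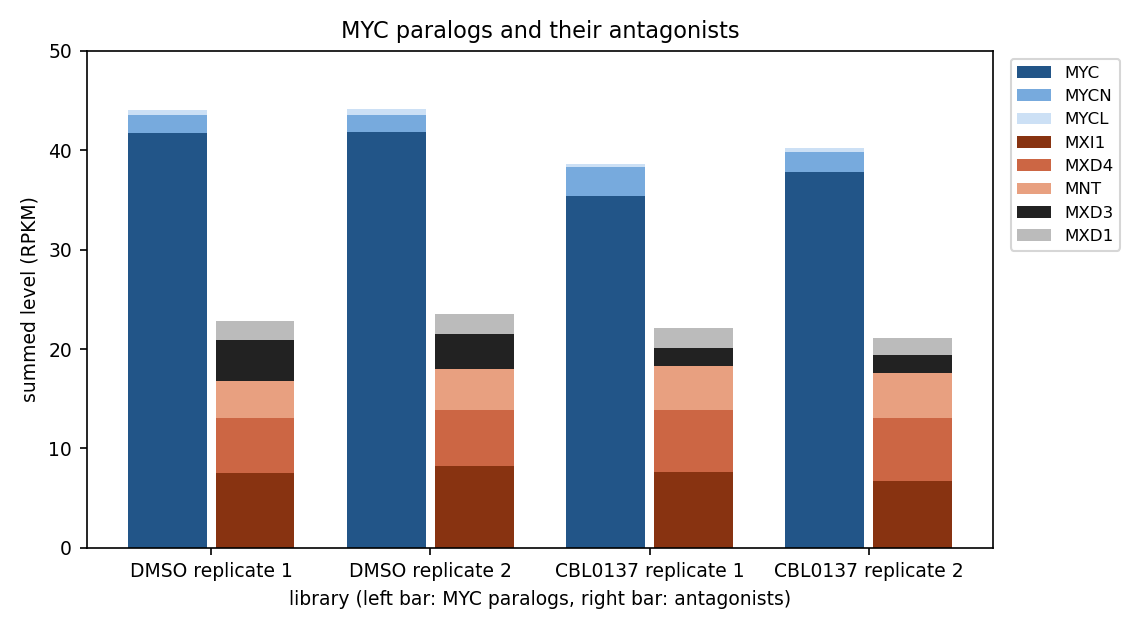
Summed per-length level (RPKM) of the MYC paralogs (left bar, blue) and of the MAX-binding antagonists (right bar, red to grey) in each library, split by gene. The paralog sum runs from 38.6 to 44.1 and the antagonist sum from 21.1 to 23.5, with a thinner MXD3 segment (black) in both CBL0137 libraries.

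The site that these dimers prefer is the E-box CACGTG, which reads the same on both strands. It was searched in RefSeq promoter windows (table on GRCh38.p14) of 250 bases before to 50 bases after each gene's start, for 9 of the 10 members that matched by symbol. MYC, the remaining member, had no window and was not searched. The motif stood in the windows of MXD4, MNT and MLX. The MLX-dependent genes were searched in the same way, and it stood in that of ARRDC4 but not in those of TXNIP. These 4 stretches are shown because they carry the site that the proteins of the network compete for. Each was placed on GRCh37 by an exact match and is printed 5′ to 3′ on the strand of its gene, with the E-box in capitals; none of the 4 motifs lies in an annotated exon.
MXD4 (chr4:2264057-2264086, minus strand): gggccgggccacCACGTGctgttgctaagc
MNT (chr17:2304530-2304559, minus strand): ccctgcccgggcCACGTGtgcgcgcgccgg
MLX (chr17:40719056-40719085, plus strand): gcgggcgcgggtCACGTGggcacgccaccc
ARRDC4 (chr15:98503711-98503740, plus strand): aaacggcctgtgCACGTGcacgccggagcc

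The motif starts 238 bases before the gene start in MXD4, 193 in MNT, 50 in MLX and 210 in ARRDC4. These distances count from the gene start of the RefSeq window. For MNT and MLX that start differs from the one in the GENCODE positions given above. Of all 35116 promoter windows of this length, 7.26% held the motif. Per gene, it was found in 12.3% of the 11891 tested genes that had a window. The network genes with the motif had log2 fold changes of 0.16 (MXD4), 0.21 (MNT) and 0.02 (MLX), and MXD3 has no CACGTG in its window. A match describes the letters only and not a bound site.

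Tested genes with the motif were called in 5.41% of 1460 cases and those without it in 8.85% of 10431, with median log2 fold changes of 0.004 and -0.01. Genes of the MYC-activated list carried it in 25 of 47 matched cases (53.2%). Genes long used as E-box targets of MYC carried it in 4 of 13 (30.8%). Whether such sites played a part in drawing up these lists was not tested, so the shares may not be independent of the lists.

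Genes that MYC is known to activate showed small differences in both directions. Of 57 listed genes of ribosome production, replication and metabolism, 56 were tested, 0 were called higher, 1 was called lower and 55 were not called, against 9.61% of all genes called. DESeq2 and limma-voom likewise called 0 higher and 1 lower, and 31 of the 56 had an unadjusted p under 0.05 with edgeR, against 44.8% of all genes tested. The median log2 fold change was -0.02. At the adjusted p alone 9 were higher and 19 lower, or 16.1% and 33.9% against 17.5% and 19.0% of all genes. Some listed genes had few counts for their deposited FPKM. IPO4, the gene not tested, had 1 to 5 counts per library at an FPKM of 21.9 to 25.5. NOP2 had 15 to 28 counts at an FPKM of 24.9 to 26.2.

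The called gene was HK2, a hexokinase that starts glycolysis, at 145 and 146 CPM in DMSO and 86.0 and 96.6 CPM in CBL0137. Both treated libraries were well below both controls, and HK2 fell by 0.67 ± 0.05 on the log2 scale (edgeR adjusted p = 6.9e-11). It was just inside the fold limit on log2(FPKM + 1), at -0.55. PLK1, a mitotic kinase, measured 233 and 229 CPM in DMSO and 158 and 164 CPM in CBL0137 (-0.52 ± 0.04, not called). The mitochondrial chaperone HSPD1 measured -0.31 ± 0.03 and its partner HSPE1 -0.53 ± 0.13. Without DMSO replicate 1 or CBL0137 replicate 1, the HSPE1 value was -0.65 or -0.62. HSPE1 had few counts for its deposited FPKM, at 247 and 289 counts in DMSO and 183 and 179 in CBL0137. Its mean was 6.49 RPKM in DMSO and 4.51 in CBL0137, against a mean deposited FPKM of 237 and 182. The cause of that gap was not tested. Of the list's genes with an adjusted p under 0.05, the largest positive value was that of SORD, sorbitol dehydrogenase, at 345 and 334 CPM in DMSO and 426 and 446 CPM in CBL0137 (0.36 ± 0.04, not called). HSPE1 was singled out after its values were seen.

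Among 15 genes long used as E-box targets of MYC, edgeR, DESeq2 and limma-voom called 0, against 9.61% of all genes tested with edgeR, and 12 had an unadjusted p under 0.05 with edgeR, against 44.8%. Their median log2 fold change was -0.16; at the adjusted p alone, 9 were lower and 2 higher, against 19.0% and 17.5% of all genes tested. PTMA, a chromatin-associated acidic protein, measured 1432 and 1448 CPM in DMSO and 1199 and 1173 CPM in CBL0137 (-0.28 ± 0.03). CAD, which starts pyrimidine synthesis, measured -0.30 ± 0.03 and the serine hydroxymethyltransferase SHMT1 -0.48 ± 0.06. POLR1B, a subunit of RNA polymerase I, stood on the other side at 0.28 ± 0.05. All 4 values were inside the fold limit.

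Of 8 genes that MYC is known to repress, 6 were tested, 2 were called higher, 0 lower and 4 were not called, against 6.88% of all genes tested called higher and 2.73% called lower. PDGFRB, a growth factor receptor of mesenchymal cells, rose from 106 and 97.4 CPM to 156 and 166 CPM, by 0.66 ± 0.05 on the log2 scale (edgeR adjusted p = 3.5e-11). The cell cycle inhibitor CDKN1A rose by 0.78 ± 0.05 on the same scale. GADD45A, a stress-induced regulator of growth arrest, measured -0.34 ± 0.06, and NDRG1 0.14 ± 0.07 with conditions that overlapped. With a median of 0.05, the list had members on both sides of zero.

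Transcripts of the proteins that MYC, MXD and MNT work with stayed inside the fold limit. Of 12 MYC coactivators and partners, edgeR, DESeq2 and limma-voom called 0. By edgeR, 9 had an unadjusted p under 0.05, and the median log2 fold change was -0.15. At the edgeR adjusted p alone, 6 of the 12 were lower and 2 higher, against 19.0% and 17.5% of all genes tested. Over all genes tested, edgeR called 9.61%, and 44.8% had an unadjusted p under 0.05. The SWI/SNF subunit SMARCB1 measured -0.29 ± 0.05, ACTL6A, a subunit shared by SWI/SNF and acetyltransferase complexes, -0.20 ± 0.05, the elongation factor PAF1 -0.19 ± 0.05 and the acetyltransferase KAT2A -0.23 ± 0.06. Of 9 corepressors used by MXD and MNT proteins, the same tools called 0, with 3 at an unadjusted p under 0.05, beside the same shares over all genes, and a median of 0.02. The corepressor NCOR1 measured 0.11 ± 0.04, the SIN3 scaffold SIN3A -0.16 ± 0.04 and the deacetylase HDAC2 -0.07 ± 0.04.

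Of 12 genes that control how long the MYC protein lasts, AURKA was called lower, 0 were called higher and 11 were not called. Over all genes tested, 2.73% were called lower and 9.61% in either direction, so the count in either direction is near the background. At the edgeR adjusted p alone, 4 of the 12 were lower and 0 higher, against 19.0% and 17.5% of all genes tested. AURKA, a mitotic kinase whose protein also shields MYCN from degradation, measured 132 and 130 CPM in DMSO and 83.0 and 84.7 CPM in CBL0137. The replicates were close together in each condition, and AURKA fell by 0.64 ± 0.05 on the log2 scale (edgeR adjusted p = 2.9e-11), which came to -0.58, just inside the fold limit, under library size alone. The ubiquitin ligase subunit SKP2 measured -0.30 ± 0.04 and the kinase GSK3B, which marks MYC for degradation, -0.29 ± 0.05. FBXW7, the ubiquitin ligase subunit that reads that mark, measured 21.1 and 22.2 CPM in DMSO and 24.4 and 22.5 CPM in CBL0137, with an edgeR adjusted p of 0.31. These are transcript levels, and protein amounts were not measured here. FBXW7 was named for its role, outside the rule on named genes.

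**Figure D5:**
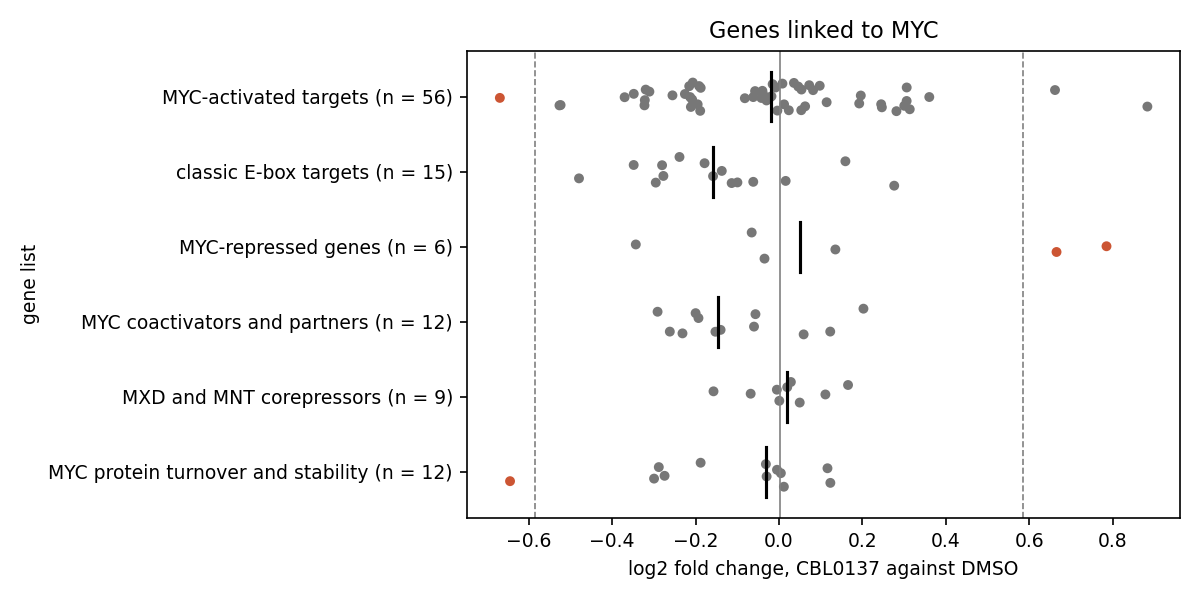
Log2 fold change of each tested gene in 6 lists linked to MYC, 1 point per gene, with the list's median as a black bar, the median of all genes tested as a grey line and the fold limit of 1.5 as dashed lines. Called genes (orange) are HK2, PDGFRB, CDKN1A and AURKA, and the list medians lie between -0.16 and 0.05.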

How the data were processed

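Trim Galore, HISAT2 on hg19 and HTSeq 0.11.1 made the authors' deposited counts per gene, per the submitters' processing notes. Per the labels, the deposited FPKM took gene length and depth into account, and the sources used here do not give its tool or the annotation release. The 6 table rows that name no gene stayed out of library sizes and tests; the HTSeq summary rows held 23.7% to 24.8% of reads per library.

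Counts were tested with edgeR 4.0.16 in R 4.3.3 (TMM factors, filterByExpr at a minimum count of 10, quasi-likelihood test). The SE is the log2 fold change divided by the square root of F, and the 95% intervals use the test's degrees of freedom. Exon lengths and GRCh37 positions came from GENCODE release 44. The common biological coefficient of variation was 3.18%. The test was tried on simulated data. Alternatives included DESeq2 1.42.0, limma 3.58.1 (voom, and trend on log2(FPKM + 1)), other scalings and filters, each library left out, and the replicate number as a block. Named genes are the members, MGA, MLXIP, MLXIPL, TXNIP, ARRDC4 and, of each list, called genes and the 4 smallest adjusted p-values; some genes this rule takes are not reported here. Members and lists were chosen with earlier results of these data known.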

Additional observations from a re-analysis of the deposited data

How the results depend on the processing

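The call of MXD3 held in all alternatives, and 1 network gene was called in each except 2: without CBL0137 replicate 2 (2 genes, MYCN added; range 1 to 2 over left-out libraries) and with no fold limit (5). On the MYC-activated list, 0 genes were called on log2(FPKM + 1), 28 with no fold limit, and 1 to 2 with a library left out. Over all genes, DESeq2 called 593 higher; log2(FPKM + 1) gave 388 higher and 189 lower, and no fold limit 3022 and 3292. Small values changed sign: the log2 fold change of MXD1 ran from -0.22 to 0.00057 with a library left out and that of MLX from -0.013 to 0.0437, and on log2(FPKM + 1) MXI1 stood at 0.0253 and MGA at 0.0616. The MYC to antagonist difference of -0.06 became 0.0142 without MNT and ran from -0.119 to 0.00411 with a library left out. The cause of these moves was not tested. The replicate block left 1 network gene called (MXD3, -1.09) and 1128 genes higher and 448 lower. Replicate differences correlated at -1.3e-04 between conditions, so no effect common to a replicate number was seen. Whether the shared numbers pair the libraries cannot be told from this value, and the labels do not say. MYCN and MYCL had 34 to 166 counts per library, and their intervals are wide.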
